A study of Homo sapiens with 6 samples.

Results

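The SR protein and hnRNP splicing factor genes of MDA-MB-231 cells, a human triple-negative breast cancer line of mesenchymal type, were examined after exposure to SCH, an extract of the medicinal herb Salvia chinensis Benth. The members were set by a rule on the gene symbol and the protein-coding label in the deposited tables, and no expression value enters that rule. The members were nevertheless chosen with earlier results of these data known. They comprised every SRSF gene, every gene whose symbol starts with HNRNP, the kinase genes CLK1, CLK2, CLK3 and CLK4, and TRA2A and TRA2B. This gave 45 of the 58735 genes in the table, namely 12 SRSF, 27 HNRNP, 4 CLK and 2 TRA2 genes. All cells were wild type MDA-MB-231. The vehicle group (n = 3) received vehicle, and the SCH group (n = 3) received 100 mg/l, both for 24 h, and polyadenylated RNA was sequenced. The labels call the 3 samples of each group biological repeats of the 1 cell line, so the p-values describe the spread between cultures of that line at 1 dose and 1 time. The libraries held 18334857 to 20291379 counted reads in vehicle and 16836369 to 18414924 in SCH.

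SR proteins carry RNA recognition motifs and a tail rich in arginine-serine repeats, and they bind exonic enhancers and recruit the spliceosome to nearby splice sites. The hnRNP proteins coat nascent RNA and often repress the same exons, so the balance between both families sets which exons are kept. CLK kinases phosphorylate the arginine-serine tails and release SR proteins from nuclear speckles, TRA2 proteins are SR-like enhancer-binding factors, and many SR genes limit their own expression through exons that send the transcript to nonsense-mediated decay.

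The cell line label was set against markers. The mesenchymal markers VIM and CD44 summed to 355 to 364 FPKM (a read level that allows for gene length and library size) in vehicle and to 274 to 284 FPKM in SCH. VIM fell by 0.56 on the log2 scale (edgeR adjusted p = 2.02e-10), and CD44 had a log2 fold change of 0.03 (edgeR adjusted p = 0.547). The receptor and luminal markers ESR1, PGR, ERBB2, CDH1 and EPCAM summed to 12.2 to 13.6 FPKM over the 6 samples. Within that sum ERBB2 rose by 0.29 (edgeR adjusted p = 1.64e-04) and EPCAM fell by 0.52 (edgeR adjusted p = 9.22e-05) on the log2 scale. The 9 markers of leukocytes, endothelium, fibroblasts and adipocytes summed to 0.709 to 1.21 FPKM, and ADIPOQ was at 0 in every sample. The leukocyte marker PTPRC held 39, 37 and 34 reads in vehicle and 4, 9 and 3 reads in SCH (log2 fold change -2.75 ± 0.368 SE, edgeR adjusted p = 8.80e-07). Only 4 of the 9 markers had enough reads to be tested, and the 3 besides PTPRC did not pass. Among them the leukocyte marker CD14 had a log2 fold change of 0.27 ± 0.358 SE (edgeR adjusted p = 0.544).

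Most splicing factor transcripts fell after SCH, and none rose. Of the 45 members, 39 had enough reads to be tested. The 6 others (HNRNPCL1, HNRNPCL2, HNRNPCL3, HNRNPCL4, HNRNPUL2-BSCL2 and SRSF12) held at most 3 reads over all 6 samples. Among the 39, edgeR's quasi-likelihood test with Benjamini-Hochberg adjustment over 14736 genes called 27 lowered and 0 raised, and 12 did not pass. At an unadjusted p under 0.05 the count raised was also 0, as it was by DESeq2 and by limma. Over all tested genes, 29.3% were raised and 29.4% were lowered, so changes in both directions were common. The median log2 fold change was -0.49 over the 39 members and -0.0035 over all tested genes. In 27 members, or 69.2%, every SCH sample was under every vehicle sample, against 31.3% of all tested genes. With libraries scaled by total reads alone, 62.6% of the changed genes were raised in place of 49.9%, the median over all genes moved to 0.10, and 27 members were lowered and 2 were raised. A bulk measurement cannot tell a lower level in each cell from fewer cells that express a gene.

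Many of these genes are abundant, and abundant genes as a whole were lowered more often. Among the 2445 genes with a mean of at least 100 CPM over the 6 samples (the reads of a gene relative to the TMM-scaled library size, with no allowance for gene length), 27.9% were raised and 45.0% were lowered, and the median over them was -0.07 (log2). Of the 27 members at that level, 23 were lowered and 0 were raised, and their median was -0.52. The HNRNP genes accounted for 17 of the 23, which were all the HNRNP genes at that level, while 5 of 9 SRSF genes and 1 of 1 TRA2 gene were lowered. Across the 39 members the log2 fold change had a Spearman rho of -0.50 with the vehicle level in FPKM, against -0.10 across all tested genes. The rho was 0.16 with the length of the gene on the chromosome and -0.04 with exonic length. These coefficients describe genes measured in the same 6 libraries, and genes are not independent replicates.

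**Figure D1:**
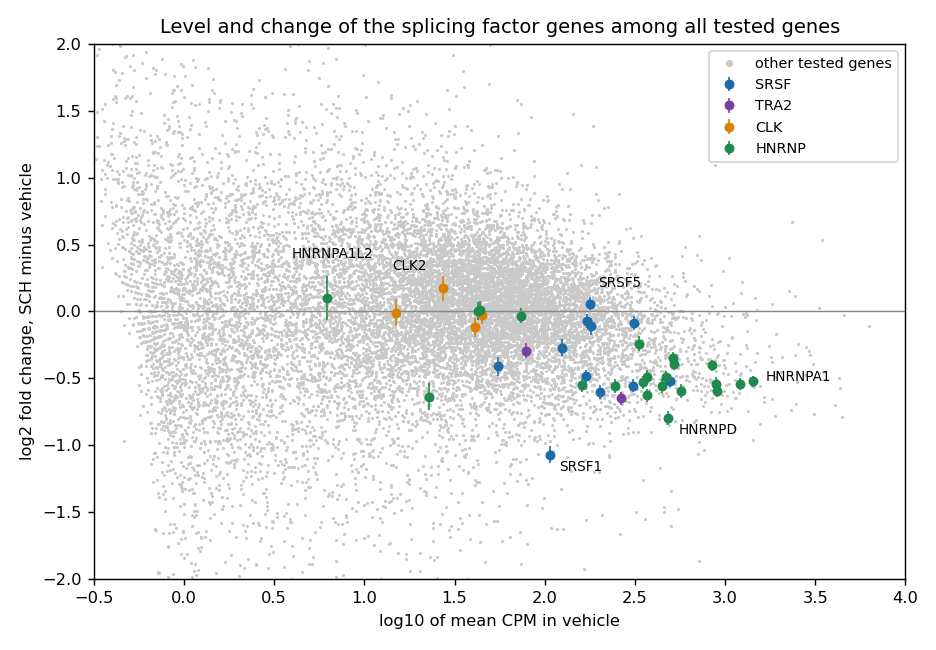
Log2 fold change (SCH minus vehicle) against the log10 of the mean vehicle CPM for all tested genes (grey) and the 39 tested splicing factor genes, coloured by family, with bars of 1 standard error. SRSF1 lies lowest of the members at -1.07, followed by HNRNPD at -0.80, and the vertical axis stops at 2 and -2, beyond which some grey genes lie.

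As a share of all reads, the 45 genes took 1.26% ± 0.00963 (SD, n = 3) in vehicle and 0.975% ± 0.0128 (SD, n = 3) in SCH. Their summed level was 2156 ± 16.2 FPKM in vehicle and 1566 ± 27.1 FPKM in SCH, or 72.6% of the vehicle level. HNRNP genes made up most of that sum, at 1671 ± 16.9 FPKM in vehicle and 1192 ± 27.5 FPKM in SCH. The summed CLK level was 18.8 ± 0.721 FPKM in vehicle and 19.1 ± 0.638 FPKM in SCH. As a share of all reads the CLK genes took 0.0123% ± 0.000164 in vehicle and 0.0132% ± 0.000363 in SCH (SD, n = 3 each). The deposited FPKM hold a factor per sample, at 0.9955 to 1.008 in vehicle and 0.9369 to 0.9408 in SCH. Ratios of SCH to vehicle in FPKM are thus lower than ratios of the read shares.

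Among the SR proteins, 7 of 11 tested genes fell, 0 rose and 4 did not pass, with a median log2 fold change of -0.41. SRSF1, the prototype SR protein and an oncogene when overproduced, had the largest fall of all members. Its vehicle samples stood at 101, 106 and 115 CPM and its SCH samples at 48.5, 50.2 and 54.2 CPM. The groups did not overlap, and the SCH samples held 47.6% of the vehicle level (log2 fold change -1.07 ± 0.0628 SE, edgeR adjusted p = 1.16e-12). It was the 1 member whose absolute log2 fold change reached 1. SRSF1 (ENSG00000136450) lies on the minus strand of chromosome 17, at chr17:58003360-58007346 on GRCh38. Of its exonic bases, 60.7% also belong to other annotated genes, and 56.6% are shared on the same strand, with AC015813.2. AC015813.2 had 0 reads in every sample. How reads in shared bases were assigned is not given in the sources used here, so such reads could have been lost. The level of SRSF1 is uncertain for that reason. The overlapping AC015813.5 on the opposite strand had a mean of 24.2 reads and did not pass the test (log2 fold change -0.06 ± 0.313 SE, edgeR adjusted p = 0.885).

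The promoter of SRSF1 is shown because this gene fell the most. The window runs from 250 bases before to 50 bases after the start, from RefSeq (GRCh38.p14), at chr17:58007197-58007496 on the minus strand. Its GC content is 62.0%. The search covered 5 letter strings on both strands, namely the CCAAT box, the E-box core CACGTG, the ETS core CCGGAA, the GC box GGGCGG and the TATA box letters TATAAA. None of them occurs in this window, so it holds no capitals.
SRSF1: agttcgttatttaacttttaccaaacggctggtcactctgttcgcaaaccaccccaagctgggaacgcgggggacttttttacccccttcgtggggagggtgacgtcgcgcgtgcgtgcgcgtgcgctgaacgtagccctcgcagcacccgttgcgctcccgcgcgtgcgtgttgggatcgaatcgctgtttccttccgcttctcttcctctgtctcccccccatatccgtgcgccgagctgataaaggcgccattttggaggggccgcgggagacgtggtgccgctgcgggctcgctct

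SRSF2, which binds exonic enhancers and is recurrently mutated in myeloid disease, stood at 202, 194 and 214 CPM in vehicle and at 132, 130 and 140 CPM in SCH. The SCH samples all lay below the vehicle samples (log2 fold change -0.60 ± 0.0523 SE, edgeR adjusted p = 8.78e-10). The neighbouring MFSD11 gene, which runs on the opposite strand and shares most of the 36.7% of SRSF2 exonic bases that overlap other genes, rose by 0.92 ± 0.0801 (log2, SE) with an edgeR adjusted p of 1.04e-09. Whether reads were counted by strand is not given in the sources used here, so reads of the shared bases could have been split or lost. The level of SRSF2 is uncertain for that reason.

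SRSF6, an SR protein with a pair of RNA recognition motifs, was the next largest fall. It stood at 309, 307 and 314 CPM in vehicle and at 204, 215 and 214 CPM in SCH, with no overlap (log2 fold change -0.55 ± 0.0467 SE, edgeR adjusted p = 5.43e-10). SRSF3, the smallest SR protein and a link between splicing and mRNA export, had the highest mean of the SRSF genes, at 67.4 FPKM in vehicle. SRSF6 and SRSF2 were close to it, at 65.2 and 65.1 FPKM in vehicle. The SRSF3 samples stood at 495, 486 and 508 CPM in vehicle and at 348, 349 and 342 CPM in SCH (log2 fold change -0.52 ± 0.0450 SE, edgeR adjusted p = 8.79e-10). The 3 SCH samples of SRSF3 lay close together and far below the lowest vehicle sample. SRSF7, also an export adaptor, fell by 0.49 on the log2 scale, SRSF8 by 0.41 and SRSF4 by 0.27, each with an edgeR adjusted p of 5.38e-04 or less.

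The remaining SRSF genes overlapped between the groups. SRSF5 stood at 184, 181 and 166 CPM in vehicle and at 189, 188 and 177 CPM in SCH (log2 fold change 0.06 ± 0.0520 SE, edgeR adjusted p = 0.346). SRSF9 had a log2 fold change of -0.11 ± 0.0621 SE (edgeR adjusted p = 0.127), and 46.2% of its exonic bases lie in GATC on the opposite strand. Over the alternatives its log2 fold change ran from -0.182 to -0.0083. SRSF9 was called lowered with upper quartile scaling, without vehicle replicate 3 and without SCH replicate 1. SRSF10, which represses splicing when it is dephosphorylated after heat shock, had -0.09 ± 0.0514 SE (edgeR adjusted p = 0.150), and SRSF11 had -0.07 ± 0.0520 SE (edgeR adjusted p = 0.251). The make-up of the family differed between the groups. SRSF1 went from 7.33% ± 0.480 to 4.59% ± 0.229 of the summed SRSF level in FPKM (SD, n = 3 each), and SRSF5 from 7.55% ± 0.445 to 10.4% ± 0.446.

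**Figure D2:**
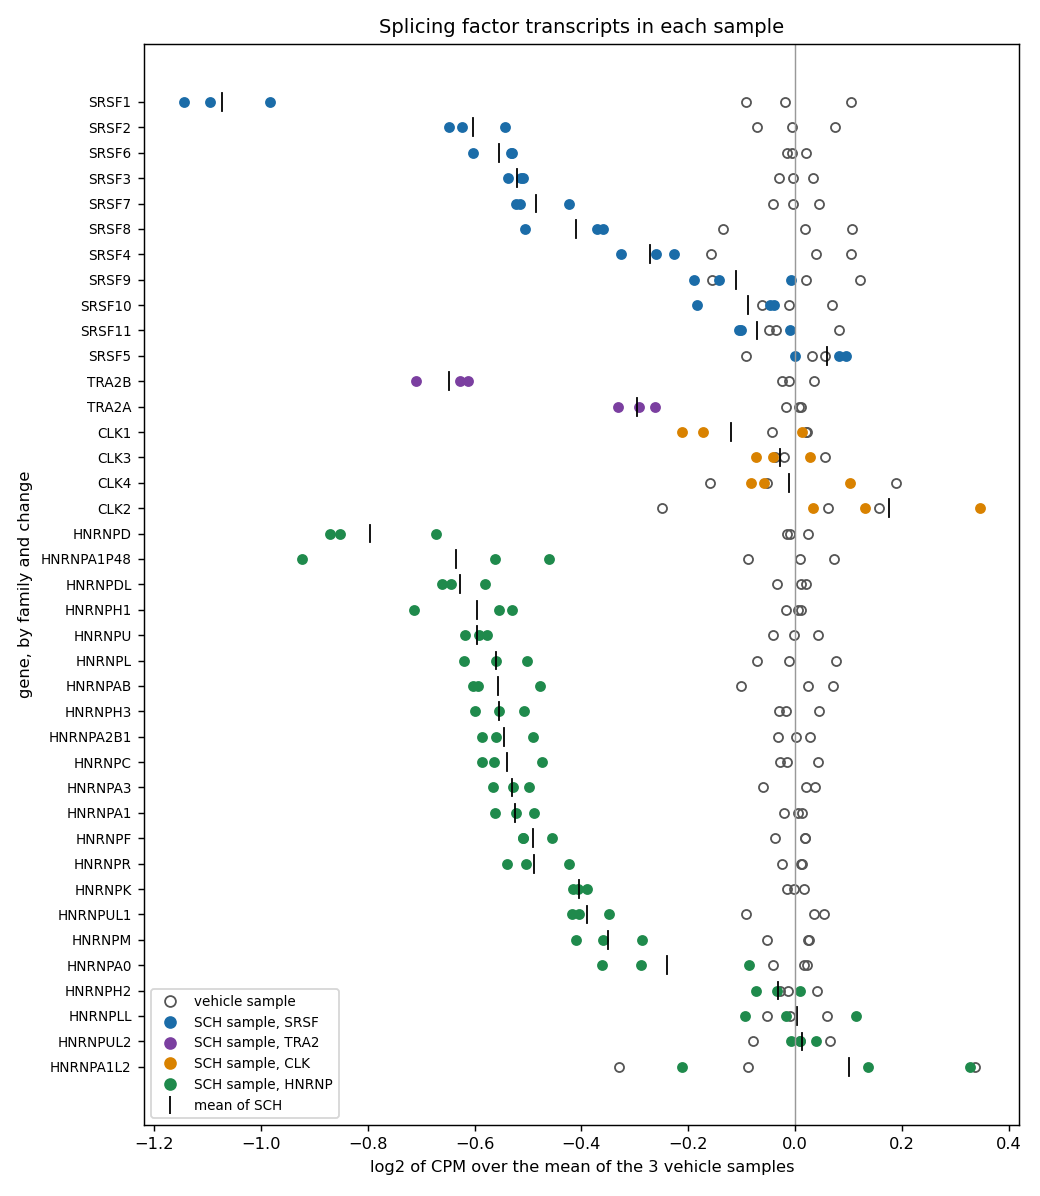
Each of the 39 tested genes in each sample, as the log2 of its CPM over the mean of the 3 vehicle samples. Open circles are vehicle samples, filled circles are SCH samples coloured by family, and black ticks are the SCH mean. In 27 genes all filled circles lie left of all open circles, and the CLK genes, SRSF5, SRSF9, SRSF10, SRSF11, HNRNPH2, HNRNPLL, HNRNPUL2 and HNRNPA1L2 overlap.

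Both TRA2 genes fell. TRA2B stood at 264, 272 and 261 CPM in vehicle and at 162, 172 and 174 CPM in SCH (log2 fold change -0.65 ± 0.0485 SE, edgeR adjusted p = 7.14e-11). TRA2A stood at 77.4, 78.9 and 78.7 CPM in vehicle and at 62.2, 64.0 and 65.2 CPM in SCH (log2 fold change -0.29 ± 0.0552 SE, edgeR adjusted p = 7.60e-05). Neither gene overlapped between the groups.

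None of the 4 CLK kinase genes passed the test. CLK1 stood at 39.7, 41.6 and 41.6 CPM in vehicle and at 35.4, 36.3 and 41.3 CPM in SCH (log2 fold change -0.12 ± 0.0705 SE, edgeR adjusted p = 0.153). The third SCH sample lay within the vehicle range and the other two lay below it. The log2 fold change of CLK1 was -0.07 without SCH replicate 1 and -0.18 without SCH replicate 3, and neither passed the test. CLK2 stood at 30.2, 28.3 and 22.8 CPM in vehicle and at 34.5, 29.7 and 27.8 CPM in SCH (log2 fold change 0.17 ± 0.0943 SE, edgeR adjusted p = 0.124). Its groups overlapped, and without vehicle replicate 1 its log2 fold change was 0.26 and passed the test, as it did without SCH replicate 3 at 0.25. Without vehicle replicate 3 it was 0.06 and without SCH replicate 1 it was 0.09 (edgeR adjusted p = 0.545 and 0.484). With all 6 samples CLK2 passed under a replicate block (log2 fold change 0.18, edgeR adjusted p = 0.0433). It also passed with libraries scaled by total reads alone (log2 fold change 0.28, edgeR adjusted p = 0.0151). The result for CLK2 thus depended on single samples and on the settings. CLK3 stood at 44.4, 46.8 and 43.8 CPM in vehicle and at 45.9, 42.8 and 43.7 CPM in SCH (log2 fold change -0.03 ± 0.0640 SE, edgeR adjusted p = 0.727). CLK4 stood at 14.5, 13.4 and 17.1 CPM in vehicle and at 14.2, 14.4 and 16.1 CPM in SCH (log2 fold change -0.01 ± 0.102 SE, edgeR adjusted p = 0.947). Values of both groups were interleaved for CLK3 and CLK4, and the sign of both estimates turned under other settings.

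Among the hnRNP genes, 18 of 22 tested fell, 0 rose and 4 did not pass, with a median log2 fold change of -0.53. HNRNPD, also called AUF1, binds AU-rich elements and directs decay of the mRNAs that carry them. It stood at 491, 477 and 479 CPM in vehicle and at 303, 264 and 267 CPM in SCH, so that the groups were far apart (log2 fold change -0.80 ± 0.0521 SE, edgeR adjusted p = 7.46e-12). HNRNPDL, a close relative and its neighbour on chromosome 4, stood at 373, 359 and 370 CPM in vehicle and at 232, 246 and 235 CPM in SCH (log2 fold change -0.63 ± 0.0467 SE, edgeR adjusted p = 6.70e-11). HNRNPH1, which binds runs of guanines, stood at 572, 564 and 575 CPM in vehicle and at 388, 395 and 348 CPM in SCH (log2 fold change -0.60 ± 0.0502 SE, edgeR adjusted p = 5.43e-10). HNRNPA1, a repressor of exon inclusion that often opposes SRSF1, was the most abundant member, at 272 FPKM in vehicle. It stood at 1438, 1412 and 1445 CPM in vehicle and at 1020, 969 and 997 CPM in SCH (log2 fold change -0.52 ± 0.0443 SE, edgeR adjusted p = 5.71e-10). The spread within each group was small beside the distance between the groups for HNRNPDL and HNRNPA1.

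HNRNPA1P48 carries the name of a pseudogene of HNRNPA1 and the label of a coding gene. It stood at 24.1, 23.1 and 21.5 CPM in vehicle and at 16.6, 12.1 and 15.5 CPM in SCH (log2 fold change -0.64 ± 0.101 SE, edgeR adjusted p = 9.23e-06). Its reads may belong to HNRNPA1 or to other copies, so its level is uncertain, as is that of HNRNPA1L2 (log2 fold change 0.10 ± 0.165 SE, edgeR adjusted p = 0.630). The table also lists 128 genes named as pseudogenes of 19 members. They held 0.400% of the read count of the members, and 4 of the 11 that could be tested were lowered and 0 were raised. The largest such share was for HNRNPC, whose pseudogenes held 1.95% of its own count.

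None of the other lowered hnRNP genes overlapped between the groups. HNRNPU, a nuclear scaffold protein, HNRNPL, which binds CA repeats, HNRNPAB, HNRNPH3, HNRNPA2B1, which also sorts RNAs for transport, HNRNPC, which binds uridine tracts, HNRNPA3, HNRNPF, a relative of HNRNPH1, and HNRNPR had log2 fold changes from -0.60 to -0.49. HNRNPK, which binds cytosine-rich RNA, fell by 0.40, HNRNPUL1 by 0.39, HNRNPM by 0.35 and HNRNPA0 by 0.24 on the log2 scale. The HNRNPA0 samples stood at 338, 337 and 324 CPM in vehicle and at 314, 260 and 273 CPM in SCH, so the first SCH sample was close to the vehicle range. HNRNPH2, HNRNPLL and HNRNPUL2 had log2 fold changes between -0.03 and 0.01 with edgeR adjusted p-values of 0.648 to 0.958. HNRNPH2 stood at 76.0, 72.5 and 73.2 CPM in vehicle and at 70.3, 72.2 and 74.4 CPM in SCH. Of the exonic bases of HNRNPUL2, 44.1% are shared with the read-through gene HNRNPUL2-BSCL2.

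Promoters of 3 hnRNP genes are shown from the same RefSeq table, for HNRNPD and HNRNPDL, which fell together, and for HNRNPH2, which did not pass the test. Capitals mark any of the 5 letter strings named above, on either strand. The window of HNRNPD lies at chr4:82373942-82374241 on the minus strand, HNRNPDL at chr4:82430413-82430712 on the minus strand and HNRNPH2 at chrX:101407972-101408271 on the plus strand.
HNRNPD: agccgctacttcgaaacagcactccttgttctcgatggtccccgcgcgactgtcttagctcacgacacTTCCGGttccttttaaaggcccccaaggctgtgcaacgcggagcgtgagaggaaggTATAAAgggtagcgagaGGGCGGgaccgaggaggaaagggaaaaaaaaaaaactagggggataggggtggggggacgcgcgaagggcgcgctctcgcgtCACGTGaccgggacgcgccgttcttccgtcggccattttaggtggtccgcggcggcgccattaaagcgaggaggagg
HNRNPDL: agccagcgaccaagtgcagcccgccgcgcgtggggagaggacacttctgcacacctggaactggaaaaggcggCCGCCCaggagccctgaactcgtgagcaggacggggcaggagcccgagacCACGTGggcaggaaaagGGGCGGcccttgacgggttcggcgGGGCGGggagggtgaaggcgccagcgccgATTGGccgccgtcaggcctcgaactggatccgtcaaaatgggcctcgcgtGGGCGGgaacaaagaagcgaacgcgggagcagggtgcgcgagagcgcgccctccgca
HNRNPH2: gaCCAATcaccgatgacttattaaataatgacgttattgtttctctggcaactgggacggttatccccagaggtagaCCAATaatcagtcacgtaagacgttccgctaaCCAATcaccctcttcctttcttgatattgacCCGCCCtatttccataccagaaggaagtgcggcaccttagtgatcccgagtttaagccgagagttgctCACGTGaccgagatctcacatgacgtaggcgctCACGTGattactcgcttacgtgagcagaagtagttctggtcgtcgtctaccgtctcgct
All 3 windows hold the E-box core. Promoters were matched for 35 of the 39 tested members, of which 23 were lowered, and not for HNRNPA1, HNRNPA1P48, SRSF2 and TRA2A. CACGTG was in 9 of the 35 (25.7%), against 10.1% of 10347 promoters of tested genes and 7.26% of all 35116 promoters of the same length. Of those 9 genes, 6 were lowered and 3 did not pass. CCAAT was in 17 (48.6%), against 36.8% of tested genes and 34.6% of all promoters, and 13 of the 17 genes were lowered. GGGCGG was in 65.7% against 70.2% and 45.0%, CCGGAA in 7 of the 35 against 29.8% and 17.2%, and TATAAA in 11.4% against 5.52% and 11.5%. For CLK2, CLK3, CLK4, HNRNPA1L2 and SRSF5 the RefSeq start lay 3.56 to 40.2 kb from the start of the gene in the deposited table. Without windows more than 1 kb away, an alternative added after seeing the data, CACGTG was in 7 of 30 members (23.3%) against 10.4% of 8984 tested genes, and CCAAT in 16 (53.3%) against 36.9%. No letter string is contained in another. They were chosen after the expression values had been seen, and a match describes letters in a window and not a bound site. The median GC content was 64.7% in the members and 65.3% in the tested genes.

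The ratio between related genes was followed as well. For 17 pairs of related genes the log2 ratio of both CPM values was computed in each sample and compared between the groups by a 2-sided exact permutation test, for which 3 samples against 3 allow no p below 0.1. The groups did not overlap in 11 pairs, each with an exact p of 0.1 and an adjusted p of 0.155 over the 17 pairs, so that no pair could pass. The 11 pairs include ratios that went down and ratios that went up. In 31.3% of all tested genes every SCH sample was under every vehicle sample, which leaves out genes apart in the other direction. Separated groups were thus common in these data. No share over both directions or over other gene pairs was computed, so the 11 of 17 has no matching share beside it. The log2 ratio of SRSF1 to SRSF9 was -0.75 ± 0.224 in vehicle and -1.71 ± 0.155 in SCH (SD, n = 3 each), a difference of -0.96. HNRNPH1 over HNRNPH2, whose proteins are nearly the same, went from 2.95 ± 0.0321 to 2.38 ± 0.135. HNRNPL over HNRNPLL went from 2.51 ± 0.131 to 1.95 ± 0.163, and HNRNPUL1 over HNRNPUL2 from 3.58 ± 0.0399 to 3.17 ± 0.0139. In each of these 3 pairs the more abundant gene fell and the other did not pass the test. SRSF5 over SRSF6 went from -0.81 ± 0.0961 to -0.19 ± 0.0821, and TRA2A over TRA2B from -1.76 ± 0.0288 to -1.41 ± 0.0215.

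In the remaining 6 pairs the groups overlapped, which does not show that the ratios were alike. HNRNPD over HNRNPDL was 0.39 ± 0.0198 in vehicle and 0.22 ± 0.143 in SCH (SD, n = 3 each, exact permutation p = 0.2), and the difference for CLK2 over CLK3 was 0.21 (exact permutation p = 0.2). The difference for CLK1 over CLK4 was -0.12 (exact permutation p = 0.4). HNRNPA1 over HNRNPA3 was 2.02 ± 0.0351 in vehicle and 2.03 ± 0.00301 in SCH (SD, n = 3 each, exact permutation p = 1.0). HNRNPA1 over HNRNPA2B1 was 0.24 ± 0.0132 in vehicle and 0.26 ± 0.0183 in SCH (exact permutation p = 0.3), and SRSF3 over SRSF7 was 1.56 ± 0.0663 and 1.53 ± 0.0701 (exact permutation p = 0.6). The 3 genes HNRNPA1, HNRNPA2B1 and HNRNPA3 had log2 fold changes of -0.52, -0.54 and -0.53.

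**Figure D3:**
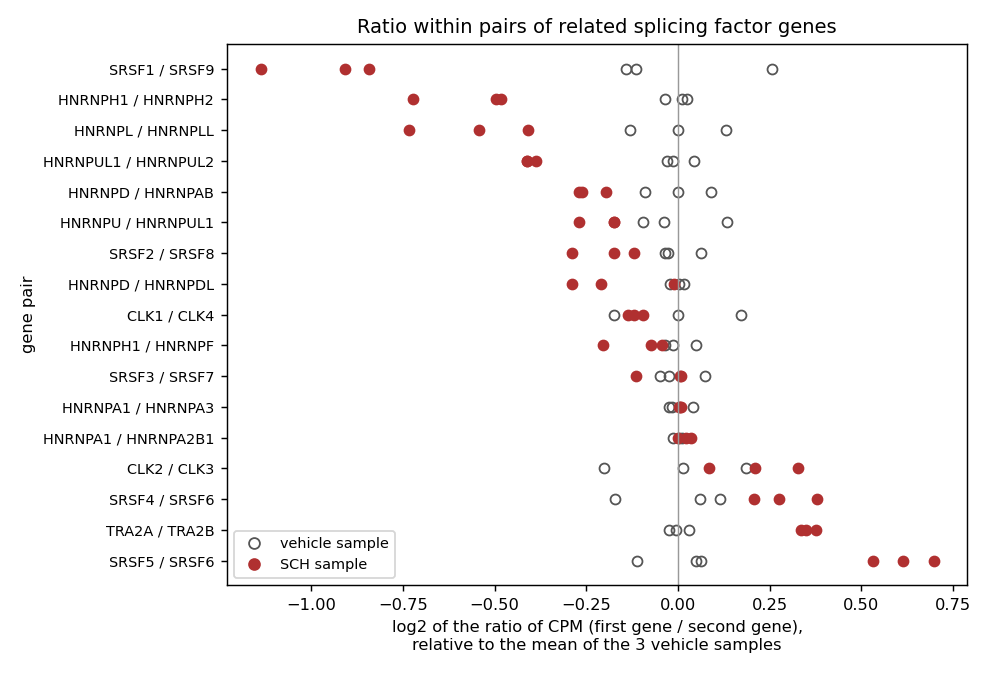
Log2 ratio of CPM within 17 pairs of related genes in each sample, relative to the mean of the 3 vehicle samples. Open circles are vehicle and filled circles SCH samples, and the groups are apart in 11 pairs, with SRSF1/SRSF9 farthest left and SRSF5/SRSF6 farthest right.

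In the GENCODE 29 annotation, in which all 45 members have the same start and end as in the deposited tables, 29 of the 39 tested members (74.4%) have at least 1 transcript labelled for nonsense-mediated decay. The share was 43.2% among 12423 tested protein-coding genes, and it was 100% for the 11 tested SRSF genes, which include lowered and unpassed ones. Transcripts labelled as retained introns were annotated for 69.2% of the members and 57.8% of the protein-coding genes. The members were shorter, with a median span of 16.0 kb against 33.4 kb. They also had more annotated transcripts (median 11 against 8) and a higher level (median 205 against 34.1 CPM). The shares were not adjusted for these differences. These shares describe the annotation, and the gene-level counts hold no value for single transcripts.

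The same fit was read for lists of other RNA processing genes, whose counts stand against 29.4% lowered and 29.3% raised over all tested genes, and 45.0% and 27.9% among genes of at least 100 CPM. Some hnRNP proteins carry other symbols. Of 7 such genes, 6 fell, 0 rose and RALY did not pass, and their median was -0.34 (log2). Over the alternatives 5 to 6 were lowered and 0 to 1 raised. PCBP1, whose groups overlapped, lost its call with libraries scaled by total reads alone (log2 fold change -0.13, edgeR adjusted p = 0.0795). RBMX, an X-linked hnRNP G protein, went from 288 ± 7.90 to 157 ± 3.12 CPM (SD, n = 3 each), with a log2 fold change of -0.87 ± 0.0478 SE and an edgeR adjusted p of 3.62e-13. SYNCRIP, or hnRNP Q, went from 262 ± 9.03 to 156 ± 5.41 CPM, with a log2 fold change of -0.74 ± 0.0494 SE and an edgeR adjusted p of 9.37e-12.

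Of 8 genes for SR protein kinases and for nuclear import receptors of SR and hnRNP proteins, 3 fell and 1 rose, and the 37.5% lowered lies between the 29.4% over all tested genes and the 45.0% among abundant ones. Over the alternatives 2 to 4 were lowered and 0 to 3 raised. SRPK1, the cytoplasmic kinase that primes SR proteins for import, fell by 0.18 on the log2 scale (edgeR adjusted p = 8.09e-03). That call was lost without SCH replicate 1 and with libraries scaled by total reads alone (log2 fold change -0.08, edgeR adjusted p = 0.251). SRPK2 had a log2 fold change of 0.09 (edgeR adjusted p = 0.222). The splicing kinase gene PRPF4B fell by 0.29, and the gene of the transportin TNPO2 by 0.42 on the log2 scale. TNPO1, the transportin that imports HNRNPA1, had a log2 fold change of 0.15 (edgeR adjusted p = 0.0277). It passed the test, but its groups overlapped and the call was lost in 7 of 15 alternatives, with adjusted p-values of up to 0.157. TNPO3, the import receptor for SR proteins, had a log2 fold change of -0.02 (edgeR adjusted p = 0.707).

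SR-related proteins, which have arginine-serine tails and do not belong to the SRSF family, were mixed, with 11 of 25 lowered and 3 raised and a median log2 fold change of -0.08. The 44.0% lowered is near the 45.0% of abundant genes, and the share raised is below their 27.9%. Over the alternatives the counts were 6 to 11 lowered and 2 to 6 raised. PNN and RSRC1 fell by 0.57 and 0.58 on the log2 scale, and RBM23 and SREK1 rose by 0.30 and 0.24. Of the core spliceosome, 25 of 55 genes fell and 10 rose, with a median of -0.09. The 45.5% lowered is near the 45.0% of abundant genes, and 18.2% were raised. Over the alternatives 20 to 27 were lowered and 9 to 15 raised. The 7 Sm ring genes, whose proteins form the shared ring of the spliceosomal snRNPs, were all called lowered, with SNRPD1 at -0.69 ± 0.0563 SE (edgeR adjusted p = 2.90e-10) and SNRPF at -0.63 ± 0.0576 SE (edgeR adjusted p = 2.03e-09). The count was 5 to 7 over the alternatives, since SNRPG, whose groups overlapped (edgeR adjusted p = 0.0382), lost its call in 7 of 15 and SNRPD3 in 3 of 15. Of 6 genes of the U1 snRNP, which recognises the 5′ splice site, 5 fell and 0 rose. The PRP19 complex, which activates the assembled spliceosome, had 5 of 8 genes raised and 1 lowered, with CRNKL1 rising by 0.62 on the log2 scale (edgeR adjusted p = 8.12e-08) and PRPF19 itself falling by 0.46 on the log2 scale. The helicase gene DHX38 rose by 0.40 on the log2 scale.

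Of 17 other splicing regulators tested, 12 fell and 2 rose, with a median log2 fold change of -0.29. Over the alternatives 11 to 12 were lowered and 1 to 5 raised. MBNL3, a muscleblind factor, went from 40.9 ± 3.91 to 16.6 ± 0.629 CPM (log2 fold change -1.30 ± 0.0817 SE, edgeR adjusted p = 3.67e-12). The epithelial splicing factor gene ESRP2 went from 21.0 ± 2.37 to 9.45 ± 0.433 CPM (log2 fold change -1.15 ± 0.102 SE, edgeR adjusted p = 1.18e-09). RBFOX2, which is linked to mesenchymal splicing, rose by 0.24 on the log2 scale (edgeR adjusted p = 1.77e-04). PTBP3 had a log2 fold change of 0.17 (edgeR adjusted p = 0.0219), with overlapping groups, and lost its call in 6 of 15 alternatives, with adjusted p-values of up to 0.116. Of 4 paraspeckle genes 2 fell and 0 rose, and over the alternatives 2 to 3 were lowered and 0 to 1 raised. SFPQ and PSPC1 fell by 0.65 and 0.50 on the log2 scale. NONO had -0.08 (edgeR adjusted p = 0.133) and the paraspeckle RNA NEAT1 had 0.07 (edgeR adjusted p = 0.291).

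Among factors of nonsense-mediated decay, 6 of 10 genes were raised and 0 lowered, and the median was 0.22 (log2). SMG8 rose by 0.38 (edgeR adjusted p = 3.56e-05) and UPF3A by 0.36 (edgeR adjusted p = 1.89e-05), while the central helicase gene UPF1 had -0.02 (edgeR adjusted p = 0.740). Of 5 exon junction complex genes, 3 fell and 0 rose, and RBM8A, 1 of the 3, lost its call in 6 of 15 alternatives. The paralogs MAGOHB and MAGOH fell by 0.93 and 0.32 on the log2 scale. Mitotic genes were lower in the same libraries. Of 10 such genes 9 fell and 0 rose, with a median of -0.61, and their summed level was 608 to 638 FPKM in vehicle and 344 to 356 FPKM in SCH. PLK1, a mitotic kinase and the most strongly lowered of the list, had a log2 fold change of -1.93 ± 0.0573 SE (edgeR adjusted p = 8.47e-18), and AURKA had -1.66 ± 0.0501 SE (edgeR adjusted p = 1.02e-17). The most abundant of these genes, CCNB1, stood at 136 FPKM in vehicle. The part of the mitotic genes in the lower splicing factor levels was not tested.

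**Figure D4:**
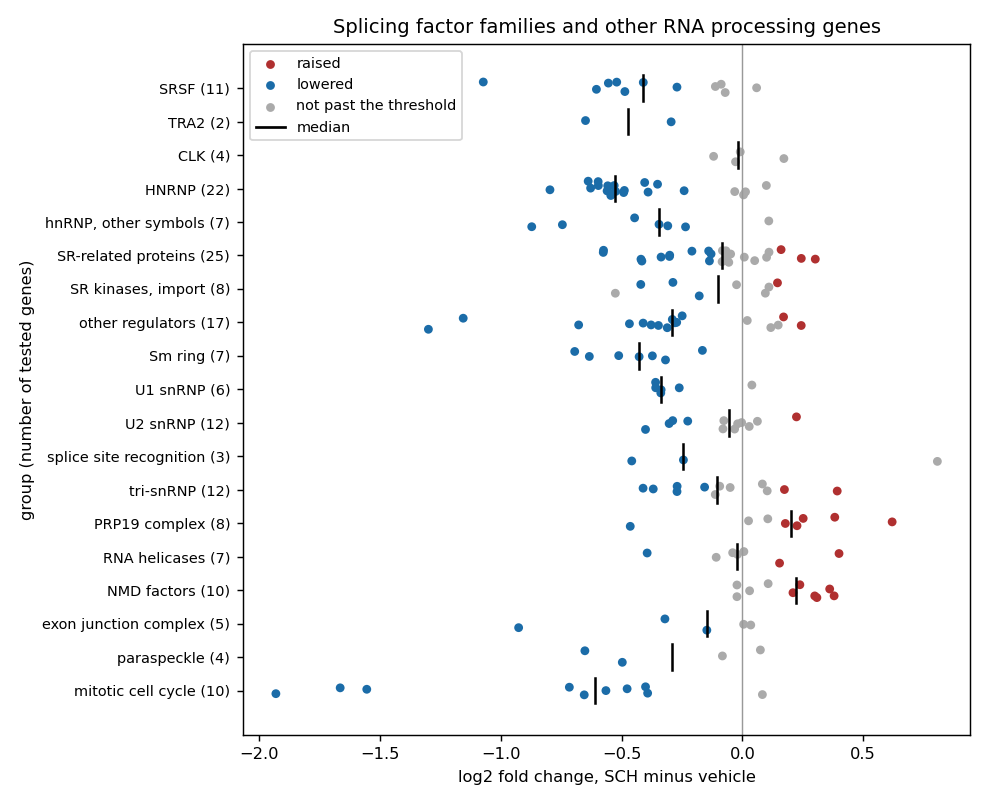
Log2 fold change (SCH minus vehicle) of each tested gene in the 4 splicing factor families and in the other lists, with the number of tested genes in brackets. Red points were raised, blue points lowered and grey points did not pass, and vertical bars mark the median, which lies at -0.53 for HNRNP, -0.41 for SRSF, -0.43 for the Sm ring, 0.20 for the PRP19 complex and 0.22 for the decay factors.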

How the data were processed

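Polyadenylated RNA was prepared with Trizol and sequenced on an Illumina HiSeq instrument by a commercial provider. The submitters' processing notes name CASAVA 1.8, HISAT2 2.0.5, featureCounts 1.5.0-p3 and DESeq2 1.20.0 without giving their roles, with GRCh38. The annotation release and strand setting are not given in the sources used here. The authors deposited raw read counts per gene for the 6 samples and FPKM values per sample. Within a sample the deposited FPKM equalled count per exonic length and total, times a factor. That factor was 0.9955 to 1.008 in the vehicle samples and 0.9369 to 0.9408 in the SCH samples. Raw counts were tested with edgeR 4.0.16 (TMM normalisation, filterByExpr, quasi-likelihood test) on R 4.3.3, over 14736 genes, with a threshold of 0.05 on the adjusted p, and the common biological coefficient of variation was 5.17%. The SE of a log2 fold change was its size over the square root of F. CPM used TMM library sizes. On data simulated for this comparison, edgeR recovered 78 of 100 genes changed by 0.5 and 97 of 100 changed by 1 (log2), with 8 false among 183 calls. Only those genes were changed among 14711 tested, equally up and down, and every gene had the same dispersion. In the real data 8650 of 14736 genes were called, so the simulation does not show the share of false calls or the scaling there.

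Values in every sample were given for all tested CLK and TRA2 genes, for the 4 largest rises and falls past the threshold among SRSF and among HNRNP genes with a mean of at least 100 reads, and for the most abundant gene of each. Of each other list the 2 largest rises and falls were named, with SRPK1 and SRPK2, and other named genes were chosen after their values were seen. The members and lists were chosen with earlier results of these data known. No 2 samples were copies of 1 library, since chi-square per degree of freedom between replicates was 2.05 to 5.29. Alternatives were other normalisations and filters, DESeq2 1.42.0, limma 3.58.1 on log2(FPKM + 1) and log2(FPKM + 0.1), a replicate block, a fold limit and leaving out each sample. The labels name the culture medium differently from the methods of the study.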

Additional observations from a re-analysis of the deposited data

How the results depend on the processing

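In all 15 alternatives the sign and the call stayed the same for 28 of the 39 tested members, all 27 lowered ones included. Requiring a log2 change of 1 or more in size left 1292 genes in place of 8650, and 1 lowered member in place of 27. The number of members raised, 0 in the main test, was 2 with library size only (CLK2 and SRSF5), 1 with the replicate block (CLK2), and 0 to 1 when 1 sample was left out (CLK2, without vehicle replicate 1 or SCH replicate 3). SRSF9 was called lowered with upper quartile scaling, without vehicle replicate 3 and without SCH replicate 1, which gave 28 lowered members in each. The median log2 fold change of SRSF genes was -0.307 with library size only and -0.470 to -0.354 with 1 sample left out. The median of HNRNP genes was -0.424 with library size only and -0.560 with upper quartile scaling. Directions turned only among members that did not pass. With library size only, CLK3 was at 0.0749, CLK4 at 0.0937, HNRNPH2 at 0.0714, SRSF10 at 0.0151 and SRSF11 at 0.0318. CLK4 was at 0.00854 with no filter on low counts and at 0.000713 with limma on log2(FPKM + 0.1). HNRNPLL was at -0.0275 and HNRNPUL2 at -0.0193 with upper quartile scaling, and HNRNPLL at -0.000285 with at least 10 counts in every sample. With 1 sample left out the ranges were -0.0509 to 0.00333 for CLK3, -0.0781 to 0.0952 for CLK4, -0.0356 to 0.302 for HNRNPA1L2, -0.0457 to 0.0564 for HNRNPLL and -0.0232 to 0.0526 for HNRNPUL2. Scaling by library size alone moved the median of all genes to 0.10, and the cause of the other turns was not tested. Of 93 calls among the other gene lists, 75 held in all 15 alternatives and 18 were lost in at least 1, of which 4 only with library size scaling. Samples with the same replicate number did not vary together (r = 0.046, -0.022 and 0.022), so the numbers were not taken as pairs, and the replicate block gave 27 lowered members. HNRNPA1L2, the tested member with the fewest reads, had a standard error of 0.165, so a small change there was not detectable at this depth.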
